A study of Mus musculus with 3 samples.

Results

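Formins are the family of proteins that start and elongate unbranched actin filaments. The formin genes described here are Diaph1, Diaph2, Diaph3, Daam1, Daam2, Fmnl1, Fmnl2, Fmnl3, Inf2 and Fhod1, chosen by symbol for their family and not for their level. All 10 were found among the 46603 genes of the count table. Polyadenylated RNA of KO-actin cells was sequenced in 3 libraries (replicates 1 to 3). These cells are MEFs, fibroblasts cultured from mouse embryos, in which the β-actin gene was knocked out and which express β-actin tagged with an NLS, the signal that directs a protein to the nucleus. They came from an existing cell line and served to ask whether tagged β-actin reverses changes seen in the knockout. All 3 libraries share this genotype, so the values below are levels within 1 condition and no comparison between conditions was made.

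A formin dimer holds the growing end of an actin filament through its FH2 domain, while the proline-rich FH1 domain beside it delivers actin bound to profilin. Most members are folded into an inactive state until an upstream signal opens them. In fibroblasts formins build stress fibres, filopodia and the contractile ring of dividing cells. By consuming monomeric actin they also free the cofactors of the transcription factor SRF, which monomers hold back.

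The libraries held 44383636 to 49932446 counts, so the floor of 3 counts, below which a gene cannot be told from absent, lay between 0.0601 and 0.0671 CPM (counts of a gene for each 1000000 in the library). Of the 10 fibroblast markers examined, all lay above this floor in every library and 8 reached a mean of 1 CPM. Vim (encoding vimentin) and Col1a1 (a collagen) were the highest and Thy1 and Dcn the lowest, with Dcn at 8, 8 and 6 counts. Among markers of other cells, 0 of 5 epithelial and podocyte, 2 of 6 blood, 2 of 6 muscle, 2 of 4 endothelial, and 6 of 6 neuron markers lay above the floor. The summed level of each of these lists was at most 23.2 CPM in a library, against 12156 CPM or more for the fibroblast list. Per kilobase the highest were Des and Tnnt2 (muscle), Slc17a7 and Syt1 (neuron), Kdr and Tek (endothelial) and Cdh1 and Cldn4 (epithelial and podocyte). The lowest were Ckm and Myod1, Rbfox3 and Gad1, Pecam1 and Cdh5, and Epcam and Nphs1, in the same order of lists. Counts on Actb, the β-actin gene, gave 1078, 1114 and 1063 CPM. Since the expressed tagged protein is itself β-actin, that row does not check the knockout. Replicate 2 stood apart, since the chi-square of its counts, divided by the degrees of freedom, was 11.2 against replicate 1 and 10.8 against replicate 3, where replicates 1 and 3 gave 3.78. The formin results that this touches are given below with and without it.

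The 10 formins fall into 5 subfamilies, and their protein identity was set beside their levels. Proteins translated from the annotated reading frames were most alike for Fmnl2 and Fmnl3, with 73.6% identity over aligned residues, and for Daam1 and Daam2, with 68.5%. Fmnl1 shared 60.9% with Fmnl3 and 60.3% with Fmnl2. In the Diaph subfamily identity was 56.6% for Diaph2 and Diaph3, 56.0% for Diaph1 and Diaph2 and 51.2% for Diaph1 and Diaph3, while Diaph1 and Daam1, of different subfamilies, shared 31.6%. The 250 bases upstream of the annotated start are shown for the Fmnl and Daam genes, because these subfamilies hold the largest differences between close relatives. They were taken from RefSeq on GRCm38.p6, 5′ to 3′ on the strand of the gene, and capitals mark the GC box GGGCGG on either strand. The windows are chr15:99370483-99370732 (minus strand) for Fmnl3, chr2:52857618-52857867 (plus) for Fmnl2, chr11:103170888-103171137 (plus) for Fmnl1, chr12:71830818-71831067 (plus) for Daam1 and chr17:49564338-49564587 (minus) for Daam2.
Fmnl3: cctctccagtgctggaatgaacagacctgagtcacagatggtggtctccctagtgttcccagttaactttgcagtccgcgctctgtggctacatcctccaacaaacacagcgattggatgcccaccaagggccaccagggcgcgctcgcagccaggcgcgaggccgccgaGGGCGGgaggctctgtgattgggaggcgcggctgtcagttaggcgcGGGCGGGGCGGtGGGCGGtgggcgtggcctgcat
Fmnl2: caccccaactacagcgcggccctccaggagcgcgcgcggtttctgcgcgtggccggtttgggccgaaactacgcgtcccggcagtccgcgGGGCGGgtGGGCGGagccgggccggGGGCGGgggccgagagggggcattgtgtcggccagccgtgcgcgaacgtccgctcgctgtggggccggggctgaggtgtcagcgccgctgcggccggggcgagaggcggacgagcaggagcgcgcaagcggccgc
Fmnl1: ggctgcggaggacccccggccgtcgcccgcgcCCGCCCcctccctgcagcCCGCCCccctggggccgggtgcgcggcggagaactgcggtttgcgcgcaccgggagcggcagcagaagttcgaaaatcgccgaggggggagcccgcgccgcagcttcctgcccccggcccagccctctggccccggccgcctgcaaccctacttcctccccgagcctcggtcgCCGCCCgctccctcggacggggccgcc
Daam1: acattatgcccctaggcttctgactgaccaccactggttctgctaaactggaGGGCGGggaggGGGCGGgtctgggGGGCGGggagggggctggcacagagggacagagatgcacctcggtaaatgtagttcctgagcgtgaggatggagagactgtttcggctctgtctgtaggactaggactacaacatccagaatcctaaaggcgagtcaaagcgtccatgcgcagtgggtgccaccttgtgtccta
Daam2: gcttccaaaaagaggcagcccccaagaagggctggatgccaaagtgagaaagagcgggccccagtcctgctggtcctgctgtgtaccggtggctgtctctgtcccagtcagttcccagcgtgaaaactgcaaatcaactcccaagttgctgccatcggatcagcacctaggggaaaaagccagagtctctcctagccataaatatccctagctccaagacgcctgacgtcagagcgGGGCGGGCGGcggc
The 4 GC boxes of Fmnl3 lie in the part of the window nearest the start and 2 of them overlap, whereas Fmnl2, Fmnl1 and Daam1 hold 3 each and Daam2 holds 2 that overlap. Daam1 has a second annotated start, and its window (chr12:71889293-71889542), with a GC content of 52.8%, holds 0. GC content of the windows shown was 65.2% for Fmnl3, 77.6% for Fmnl2, 79.2% for Fmnl1, 58% for Daam1 and 58.4% for Daam2. The 3 Fmnl windows therefore all lie above the upper quartile of 61.2% over all 32851 promoters in the table, also that of Fmnl1, whose RNA was the scarcest of the 10. Promoters were matched for 9 of the 10 formins, with 12 windows in all. A GC box was present in 10 of the 12, from 8 of the 9 genes, against 32.7% of all promoters. That background was not matched for GC content, whose median over all promoters was 52.4%. The CCAAT box was present in 3 against 33.9%, the E-box CACGTG in 3 against 6.02%, the TEAD motif GGAATG in 3 against 12.6%, the TATA box TATAAA in 0 against 12.4%, and the CArG box of SRF in 0 against 1.47%. Both strands were searched. Windows of the same gene overlap for Inf2 and Daam2, so the 12 are not independent, and these matches describe letters only.

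Formin RNA was detected for all 10 genes and was dominated by Fmnl3, Inf2 and Diaph3. More than 3 counts in every library were found for 10 of 10, where 58.9% of the 21624 protein-coding genes met this limit. A mean of at least 1 CPM was reached by 9 of 10, all but Fmnl1, where 52.1% of protein-coding genes reached it. The 10 genes together took 0.0798%, 0.0794% and 0.0772% of the counts, which is 788 ± 18.2 CPM (SD, n = 3). Because a longer transcript yields more reads, levels of different genes were compared only as CPM per kilobase of annotated exon. On that scale 6 of the 10 lay above 6.43, the median of the 12726 protein-coding genes above the floor in every library.

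**Figure D1:**
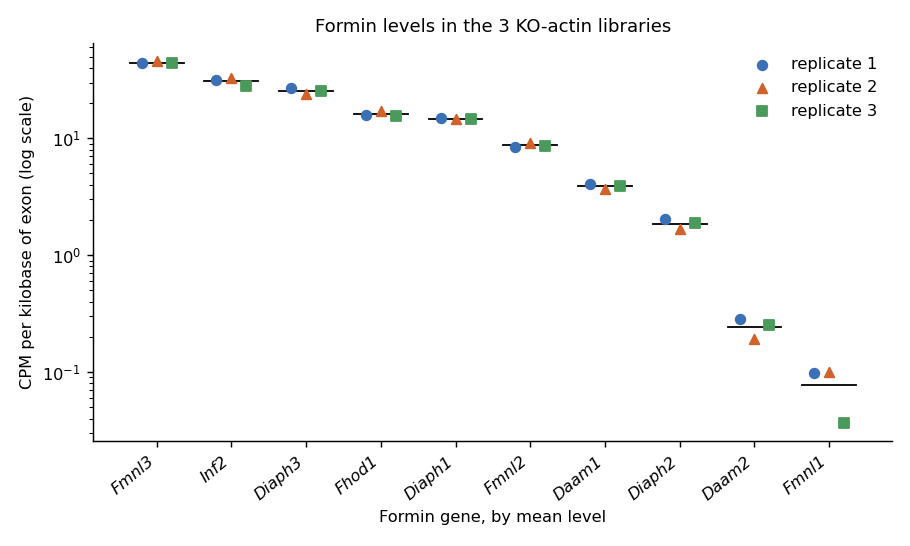
Level of each formin in each library, in CPM per kilobase of exon on a log scale, with a symbol per replicate and a bar at the mean of 3. Levels run from 44.5 for Fmnl3 to 0.0782 for Fmnl1, and the libraries of a gene lie close together except for replicate 3 of Fmnl1.

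Coordinates below are those of GENCODE release M21 on GRCm38. In the Diaph subfamily Diaph3 and Diaph1 were well expressed and Diaph2 was low. Diaph3 (mDia2, which acts in filopodia and in cytokinesis, chr14:86655367-87141235) had 7485, 6535 and 6277 counts, or 26.9, 23.8 and 25.2 CPM per kilobase. Replicate 2 was the lowest and replicate 1 the highest. Diaph1 (mDia1, which builds stress fibres, chr18:37843601-37935476) had 4763, 4571 and 4114 counts, or 15.1, 14.6 and 14.5 CPM per kilobase, the 3 libraries lying within a fold of 1.04. Diaph2 (mDia3, chrX:129749742-130465834) had 1172, 948 and 967 counts, or 2.03, 1.67 and 1.87 CPM per kilobase, again lowest in replicate 2. Ranges of the 3 genes did not overlap. Diaph1 stood at 0.559, 0.615 and 0.576 times the level of Diaph3 per kilobase, a mean of 0.583 ± 0.0284 (SD, n = 3). Over Diaph2 it was 7.41, 8.79 and 7.75 times higher, with a mean of 7.98 ± 0.718. The latter depends on length, since the annotated exons of Diaph2 span 11.553 kb but its coding sequence 3.329 kb, and per kilobase of coding length the mean ratio was 3.84.

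The Fmnl subfamily held both the highest and the lowest formin. Fmnl3 (a formin of filopodia and cell adhesions, chr15:99317225-99370482) had 10944, 11384 and 9811 counts, or 43.7, 46.0 and 43.7 CPM per kilobase, with replicate 2 highest. Its mean of 44.5 ± 1.33 (SD, n = 3) was above that of 90.3% of the detected protein-coding genes. Fmnl2 (an effector of Cdc42 that elongates filaments at the leading edge of migrating cells, chr2:52857860-53133804) had 2390, 2546 and 2156 counts, or 8.50, 9.17 and 8.56 CPM per kilobase. Replicate 2 was again the highest. Despite the protein identity of this pair, Fmnl2 stood at 0.195, 0.199 and 0.196 times the level of Fmnl3, the steadiest of the 6 ratios examined at 0.197 ± 0.00243. Fmnl1 (a formin best known from leukocytes, chr11:103171107-103198901) had 24, 24 and 8 counts, or 0.481, 0.487 and 0.179 CPM. Exact Poisson 95% intervals were 0.308 to 0.715, 0.312 to 0.725 and 0.0773 to 0.353 CPM, and they cover counting error only. Replicate 3 was the lowest, and its interval overlaps those of the other libraries, which does not show that the libraries are alike. Fmnl3 was higher than Fmnl1 by 444-fold, 462-fold and 1193-fold, so the mean of 699.6 rests on the 8 counts of replicate 3 and was 453 without it.

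Because Fmnl1 is a gene of blood cells, the defining markers of those cells are given beside it. Ptprc had 0, 1 and 0 counts and Cd3e 0 in every library, and the 6 blood markers summed to 3.75 to 4.38 CPM, nearly all of it Coro1a with 178, 189 and 156 counts. Spi1 had 7, 12 and 14 counts, above the floor in every library, Lyz2 had 1, 12 and 2, and Cd53 had 1, 2 and 2. In RNA of whole cultures, few cells with the transcript and little of it per cell cannot be told apart.

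Daam1 carried most of the Daam RNA. Daam1 (a formin that binds Dishevelled in Wnt planar polarity signalling, chr12:71831078-71992333) had 1652, 1481 and 1425 counts, or 4.09, 3.71 and 3.94 CPM per kilobase. Daam2 (its paralog, also a Wnt component, chr17:49456022-49564343) had 138, 92 and 110 counts, or 0.283, 0.191 and 0.252 CPM per kilobase. Both genes were lowest in replicate 2 and highest in replicate 1. Daam1 exceeded Daam2 by 14.4-fold, 19.4-fold and 15.6-fold, a mean of 16.5 ± 2.60 (SD, n = 3).

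Inf2 and Fhod1, each alone in its subfamily here, were both prominent. Inf2 (a formin that also severs filaments and acts where the endoplasmic reticulum meets mitochondria, chr12:112588784-112615557) had 7602, 7878 and 6151 counts, or 31.3, 32.8 and 28.3 CPM per kilobase. Replicate 2 was the highest and replicate 3 the lowest. Fhod1 (a formin activated by the kinase ROCK that bundles filaments of stress fibres, chr8:105329163-105347953) had 3666, 3930 and 3261 counts, or 15.7, 17.1 and 15.6 CPM per kilobase, highest in replicate 2. Inf2 exceeded Fhod1 1.99-fold, 1.92-fold and 1.81-fold, with a mean of 1.90 ± 0.0908 (SD, n = 3).

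By subfamily, the Fmnl genes made up 36.4% ± 0.900 (SD, n = 3) of summed formin CPM per kilobase and the Diaph genes 28.7% ± 1.56. Inf2 made up 21.0% ± 1.06, Fhod1 11.0% ± 0.398 and the Daam genes 2.84% ± 0.196. Fmnl3 alone accounted for 30.4% ± 0.715 and Diaph3 for 17.3% ± 1.20. In replicate 2 the Diaph share was lowest, at 26.9% against 29.8% and 29.3%, and the Fhod1 share highest, at 11.5% against 10.7% and 11.0%. By CPM with no length the shares of Fmnl and Diaph were 34.6% and 32.5%.

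**Figure D2:**
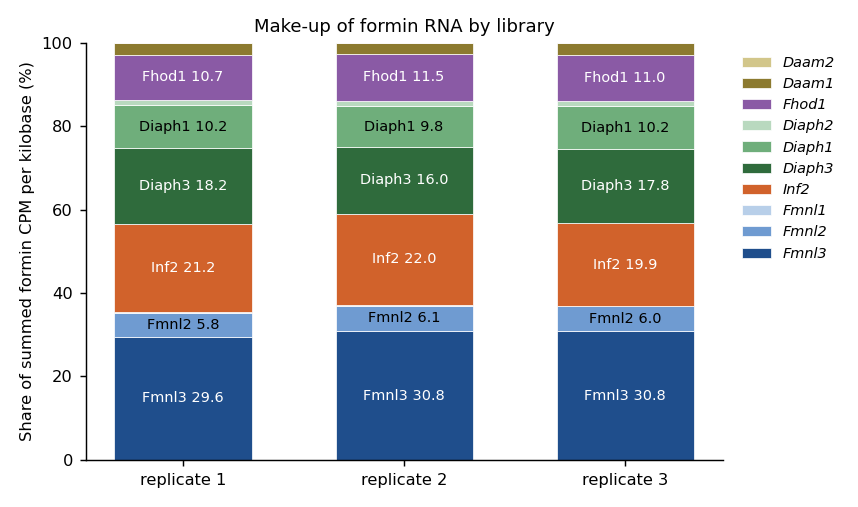
Share of each formin in the summed CPM per kilobase of the 10 genes, in percent, with a stacked bar per library and colours by subfamily. Fmnl3 is the tallest band in each bar at 29.6%, 30.8% and 30.8%, and Daam2 and Fmnl1 are too thin to see.

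Ordered by mean log2 CPM per kilobase, the formins ran Fmnl3, Inf2, Diaph3, Fhod1, Diaph1, Fmnl2, Daam1, Diaph2, Daam2 and Fmnl1. All 9 neighbouring pairs kept this order in 3 of 3 libraries and their ranges did not overlap. The closest neighbours were Fhod1 and Diaph1, a fold of 1.10 apart (1.05 to 1.17 over libraries), and Inf2 and Diaph3, 1.21 apart (1.12 to 1.38). The widest gap was that of Diaph2 over Daam2, a fold of 7.75 (7.18 to 8.71). With 3 libraries the exact two-sided sign-flip permutation test cannot go below p = 0.25, which each of the 9 pairs and each of the 6 ratios gave, with a Benjamini-Hochberg adjusted p of 0.25.

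The order within both close pairs depended on the length used. Per kilobase of coding length Diaph3 stood at 1.08, 0.906 and 1.11 times Inf2, so these neighbours did not differ beyond their spread (mean 1.03 ± 0.111, SD, n = 3). Diaph1 then lay above Fhod1, at 1.23, 1.10 and 1.19 times its level. The order of the other 6 was the same by exonic length, coding length and the longest transcript. Nothing in the counts tells which transcripts of a gene were made, so the exonic length is that of all annotated transcripts together.

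**Figure D3:**
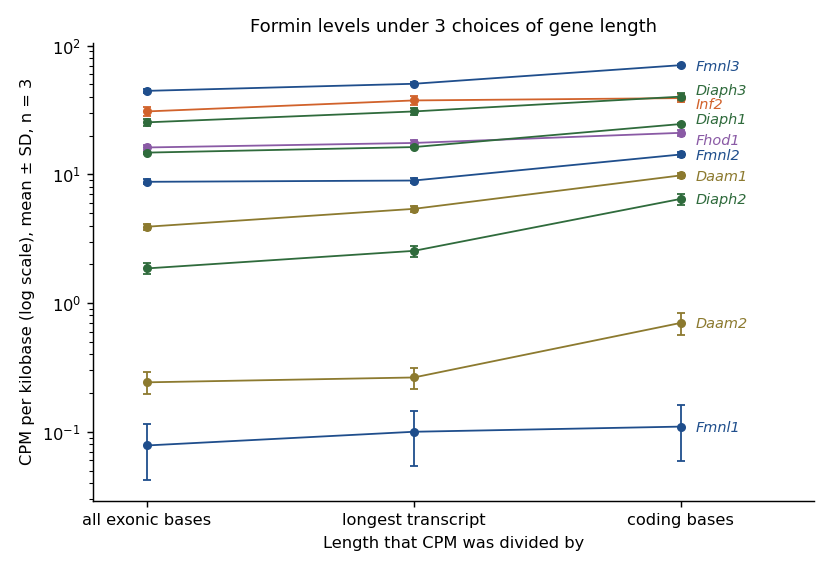
Mean CPM per kilobase of each formin (log scale, error bars SD, n = 3) when CPM is divided by all exonic bases, by the longest transcript or by coding bases. Lines cross for Inf2 and Diaph3 and for Fhod1 and Diaph1 at coding bases, and Diaph2 shifts from 1.86 to 6.44.

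Whether formin levels were alike in the 3 libraries was then tested for each gene by a chi-square of its counts against the scaled library sizes (adjusted p by Benjamini-Hochberg over 13814 genes). Differences beyond counting error were called for 7 of the 9 formins tested, where 43.9% of all genes tested were called. At this depth small differences pass, and 55.4% of the 9214 genes averaging 10 CPM or more were called, against 6 of the 8 formins at that level. The highest library exceeded the lowest by a median fold of 1.10 over the 9 formins, 1.11 over all genes tested and 1.08 over the genes averaging 10 CPM or more. Called differences of more than 1.5-fold were found for 0 of 9 formins and 3.84% of genes, although at an adjusted p below 0.05 alone 7 were called. Inf2 differed most clearly, with 152, 159.9 and 138 CPM (adjusted p = 2.45e-16), followed by Diaph3 with 150.0, 132.6 and 140.5 CPM (adjusted p = 4.90e-11). Diaph2 (adjusted p = 1.55e-04), Fmnl3 (2.93e-04), Fhod1 (5.00e-04), Daam2 (0.0319) and Fmnl2 (0.0337) were also called. Daam1 (adjusted p = 0.0559) and Diaph1 (0.289) were not. Fmnl1 was not tested because replicate 3 had fewer than 10 counts. With no filter on counts, its adjusted p by the same chi-square was 0.0835.

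Much of this variation lay in replicate 2, whose deviation moved with GC content across genes but not for every formin. Without replicate 2 differences were called for 2 of 9 formins, Inf2 (adjusted p = 4.32e-07) and Diaph3 (0.00304), where 12.5% of genes were called. Replicate 2 lay above the mean of the other libraries for 4 formins and below it for 5. On the log2 scale it was higher by 0.14 for Inf2, 0.12 for Fhod1, 0.10 for Fmnl2 and 0.07 for Fmnl3. It was lower for Daam2 (-0.49), Diaph2 (-0.23), Diaph3 (-0.13), Daam1 (-0.11) and Diaph1 (-0.02). The transcripts of Inf2, Fhod1 and Fmnl3 have a GC content of 60.4%, 58.5% and 55.3%, and those of Diaph2 and Diaph3 of 40.8% and 42.9%. Fmnl2, higher in replicate 2, has 44.3%, and Daam2, the farthest below, has 52.7%. Daam1 and Diaph1 have 46.1% and 51.6%. Across 13770 genes the Spearman correlation of GC content with this deviation was 0.49, a description over genes that share these libraries.

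When library sizes were fitted within bins of GC content, 5 of 9 formins were called, where 30.3% of genes were. The deviation of replicate 2 then came to 0.00 for Fmnl3, 0.01 for Fhod1 and -0.05 for Diaph3 on the log2 scale, and Fmnl3 (adjusted p = 0.880) and Fhod1 (0.932) were no longer called. For Daam2, with a GC content of 52.7%, it was then -0.53, against -0.49 before, and for Fmnl2, with 44.3%, it was 0.16, against 0.10 before. The adjusted p of Fmnl2 was 3.57e-04 with the GC bins, against 0.0337 without. Inf2, Diaph3, Diaph2, Daam2 and Fmnl2 were still called. The part of GC content in any difference between these libraries was not tested further.

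**Figure D4:**
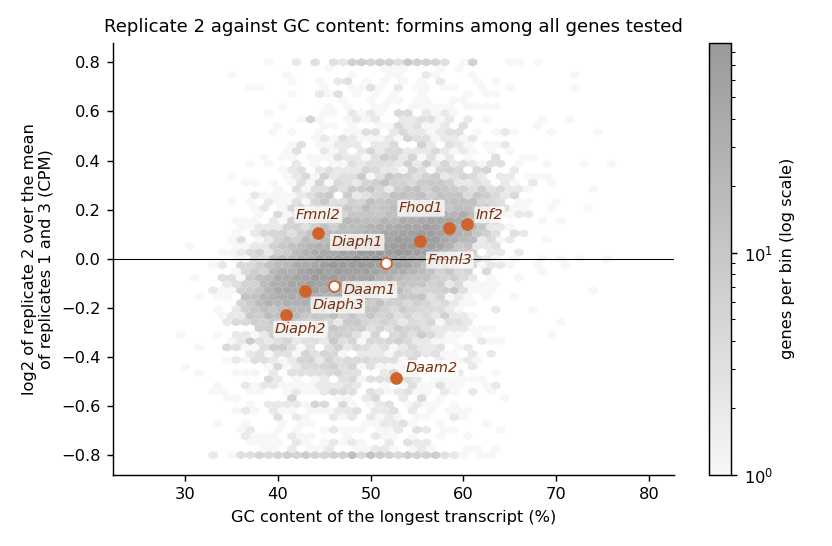
Log2 of replicate 2 over the mean of replicates 1 and 3 (CPM) against the GC content of the longest transcript (%), with grey bins for all genes tested (darker means more genes, log scale) and points for the 9 formins tested, filled where called. Genes past the vertical limits are drawn at the edge, and Daam2 lies farthest from 0 among the formins at -0.49.

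The formins can be told apart by reads in the transcripts examined. Windows were taken from the coding transcript of each gene with the longest complete reading frame. No such window of 50 bases of any formin occurred in another formin, including the Fmnl2 and Fmnl3 pair. Longer transcripts of a gene gave no windows. Daam2 had 3597 windows of 50 bases, while its longest transcript has 8956 bases. For Diaph3, 4.77% of windows of 50 bases recurred in 524 other genes. Of its windows of 100 bases 3.17% recurred, all in 1 gene, Gm45403, for which no counts were found. Shares at 50 bases were 1.75% for Fhod1, 1.46% for Fmnl1 and 0.429% for Diaph2, and 0 for the other 6. Exons of Fhod1 overlap 116 bases of Tmem208 on the opposite strand, 2.49% of its exonic length, and Tmem208 had 2569, 2516 and 2235 counts. How the counting used strand is not given in the sources used here, so reads of that overlap cannot be told apart. Fmnl1 overlaps Gm20511 by 120 bases, and Gm20511 had 0 counts in each library.

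The stretch richest in proline differed between the formins without following their order by level, and the FH1 domains themselves were not located. In the stretch of 100 residues richest in proline, Inf2 held 57 prolines, Diaph1 56, Diaph2 50, Fmnl1 48, Fmnl2 44 and Fhod1 41. Diaph3, Daam1 and Daam2 held 35 each, and Fmnl3, with the most RNA, the fewest at 29. The longest unbroken run of proline was 18 residues in Fmnl2, 13 in Diaph3 and 12 in Diaph2.

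Of 4 further formin genes of the mouse that were examined, Fmn1 and Fhod3 were expressed at the level of the lower members. Fmn1, first known from limb development, had 3778, 3249 and 3146 counts and 4.59 ± 0.318 CPM per kilobase (SD, n = 3), which placed it between Fmnl2 and Daam1. Fhod3, a formin of heart sarcomeres, had 759, 818 and 660 counts and 2.14 ± 0.132 CPM per kilobase. Fmn2, which acts in oocytes, had 3, 1 and 1 counts and Grid2ip 2, 3 and 2, both at or under the floor.

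Among the proteins that formins work with, levels spanned from 0 counts to well above any formin. Profilin Pfn1, which feeds actin to the FH1 domain, had 1155, 1331 and 1202 CPM, or 511 ± 37.9 CPM per kilobase (SD, n = 3), and Pfn2 4.91 ± 0.169 per kilobase. Pfn3 and Pfn4 were listed at 0. All 22 regulators and partners, such as Dishevelled proteins and ROCK kinases, reached 1 CPM, with a median of 15.7 per kilobase. Arhgdia (562) and Cap1 (191) were the highest of them, and Cap2 (3.48) and Nckipsd (2.70) the lowest. Over the 10 formins the median was 11.7.

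The other route to actin filaments, the Arp2/3 complex that makes branches, had a higher median level per gene than the formins. All 9 of the subunit genes examined were expressed, with a median of 88.5. They ran from 19.2 CPM per kilobase for Arpc5l and 38.5 for Arpc1a to 162 for Arpc5 and 205 for Arpc2. Of these 9 genes 8 exceeded Inf2, but the ranges of the Arp2/3 genes and the formins overlapped. Arpc5l lay below Fmnl3, Inf2 and Diaph3, and Arpc1a lay below Fmnl3. The complex is built from several different subunits, whereas each formin acts alone as a dimer, so these medians compare RNA per gene only. Of 7 other nucleators 5 reached 1 CPM, led by Lmod1 (24.1) and Spire2 (7.20), while Lmod2 and Lmod3 had at most 1 count in a library.

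Differences between libraries were called for 16 of the 22 regulators and partners, 6 of the 9 Arp2/3 genes, 2 of 5 other nucleators, 1 of 2 profilins and 1 of 2 other formins. The last is Fmn1 (adjusted p = 4.89e-07), against the background of 43.9% given above.

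**Figure D5:**
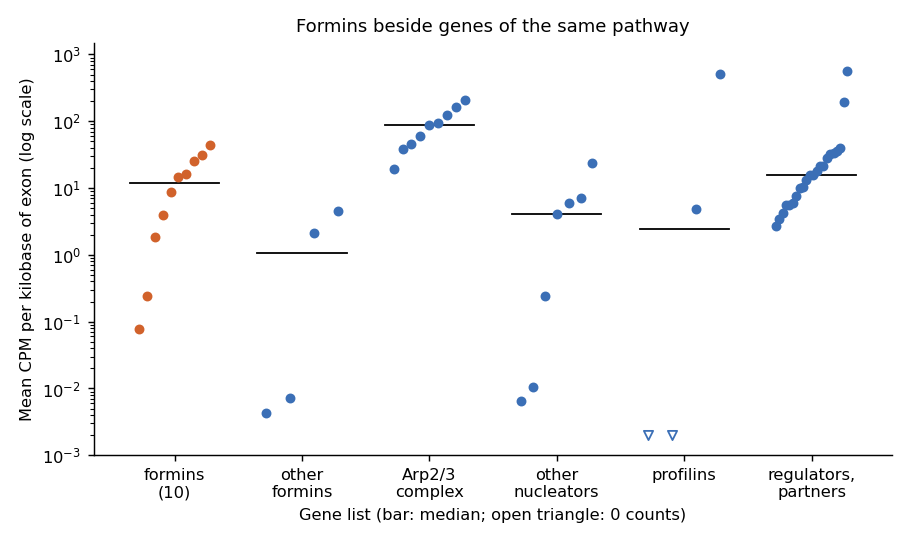
Mean CPM per kilobase of exon (log scale) of each gene in 6 lists, with a point per gene, a bar at the median of the list and open triangles for genes with 0 counts. The formins span 0.0782 to 44.5 around a median of 11.7, and the Arp2/3 genes span 19.2 to 205.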

How the data were processed

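RNA-Seq counts of the 3 KO-actin libraries were analysed as deposited. The authors deposited raw counts per gene, not normalized. The submitters' processing notes name Trimmomatic, FastQC, HISAT2 and HTSeq, and mm10 (GRCm38). Their versions and options, strand setting, read length and annotation release are not given in the sources used here. No column of per-sample values was left unused (0).

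Further gene lists were examined and are not reported here. The members and gene lists were chosen with earlier results of these data known. All 10 formins, the 4 further formin genes examined and the highest 2 and lowest 2 of each reported list are named. Lyz2 and Cd53 are also named as blood markers and Actb as the targeted gene. Tmem208 and Gm20511 are named as overlapping genes, and Gm45403 for windows shared with Diaph3.

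CPM used library sizes that TMM scaled (edgeR 4.0.16, R 4.3.3), with factors of 0.994 to 1.01. CPM was divided by exonic length from GENCODE M21. Variation was tested by chi-square with 2 degrees of freedom over genes that had 10 counts or more in each library (Benjamini-Hochberg, threshold 0.05), and the script was tested on simulated data. edgeR's quasi-likelihood test needs a second group and was not used. Alternatives were DESeq2 1.42.0 size factors, total counts, other filters, other lengths, 50 bins of GC content and leaving out each library. The labels do not say that the libraries came from separate cultures, so p-values measure only the spread between these libraries, which may be technical. Intervals and floors cover counting error only. Protein sequences were translated from GENCODE M21 reading frames and aligned globally (BLOSUM62) in Biopython 1.88. Python 3.11.15, numpy 2.4.6, pandas 2.3.3, scipy 1.17.1 and matplotlib 3.10.9 were used.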

Additional observations from a re-analysis of the deposited data

How the results depend on the processing

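All 10 formins stayed above the floor and 9 reached 1 CPM whichever library was left out, and the 9 neighbouring pairs kept their order. These outcomes were fixed in advance, because each already held in every single library. With a limit of more than 10 counts in every library, 9 formins passed. The number of formins called as varying was 7 with all libraries, 2 to 8 with a library left out (2 without replicate 2, 5 without replicate 1 and 8 of 10 tested without replicate 3, where 12.5%, 32.9% and 34.0% of all genes were called), and 0 when more than 1.5-fold was also required. It was 7 with DESeq2 size factors or total counts (43.9% of genes each), 7 of 8 with at least 100 counts in every library (52.0%), 6 of 10 with no filter (25.9%) and 5 with GC bins (30.3%). With total counts Daam1 was called and Fmnl2 was not. Of 20 single-gene means under other scalings, 0 moved by more than the SD, and the largest change was 0.178%. The scalings share the same overall size, so means over the 3 libraries could hardly change. Scaling acts on the differences between libraries, which these means do not measure.

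Length mattered more. Per exonic length the Diaph share was 28.1% to 29.6% over left-out libraries. It was 31.4% per coding length and 32.5% with no length. With coding length the ratios were 0.614 for Diaph1 over Diaph3, 3.84 for Diaph1 over Diaph2 and 0.202 for Fmnl2 over Fmnl3. With the longest transcript they were 0.530 for Diaph1 over Diaph3, 6.44 for Diaph1 over Diaph2, 20.8 for Daam1 over Daam2, 0.177 for Fmnl2 over Fmnl3 and 2.14 for Inf2 over Fhod1. Of 12 such ratios 8 moved by more than the SD of their own log2 ratio over the libraries, and 0 reversed. That SD was 0.0178 for Fmnl2 over Fmnl3, so a small shift counted as moved there. Leaving out libraries gave Fmnl3 over Fmnl1 ratios of 453 to 827. Per coding length 7 of the 9 neighbours kept their order by mean, and Inf2 with Diaph3 and Fhod1 with Diaph1 changed places. After ordering by coding length, 8 of 9 neighbours held that order in every library. No paired analysis was possible because the 3 libraries form 1 group. Depth limits Fmnl1, with 8 to 24 counts, and Daam2, with 92 to 138.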
